A study of Mus musculus with 43 samples.

Results

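Lipid-associated macrophage genes are a set of 10 genes that mark the macrophages which gather around enlarged or dying fat cells and take up their lipid. They were read here in epididymal white adipose tissue, a visceral fat depot, of male mice. The members were Trem2, Tyrobp, Cd9, Spp1, Gpnmb, Fabp5, Cd63, Plin2, Lgals3 and Apoe, matched by symbol among the 56748 genes of the deposited tables, and each symbol was found once. After a filter on low counts 20218 genes were tested, and 10 of the 10 members passed it. The question was how the members stood in each diet and dose group, and whether they moved as the general genes of macrophages did.

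The 43 libraries were poly(A)-selected, strand-specific RNA-seq libraries in 5 groups. The SD group (7 libraries) ate a standard diet with 10% fat, and the HFD group (10 libraries) ate a diet with 60% fat. The other 3 groups ate the high-fat diet and received SZ-A, a preparation of Ramulus Mori (Sangzhi) alkaloids from mulberry twigs, at 200 mg/kg/day (9 libraries), 400 mg/kg/day (8 libraries) or 600 mg/kg/day (9 libraries). The labels name no allele, strain or age, and they number replicate samples without naming animals, so p-values measure the spread between these samples. Whole tissue was read, so fewer cells of a type and less RNA per cell cannot be told apart in any value given here.

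Lipid-associated macrophages sense lipid through TREM2, a surface receptor that signals through its adaptor TYROBP. Activated cells turn on genes for lysosomes, lipid uptake and storage, and secreted matrix proteins, and they surround fat cells in crown-like structures. Several of the genes are also made by other cells of fat tissue: Apoe and Plin2 by adipocytes, and Spp1 by many activated and epithelial cells.

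The RefSeq sequence before the start site was present for 8 of the 10 members, on GRCm38.p6. Of these, 3 stretches of 250 bases are shown, each 5′ to 3′ on the + strand and ending at the base before the start. Trem2 (chr17:48346151-48346400) and Gpnmb (chr6:49036268-49036517) are shown because they were the pair of members with the most similar profile over the 43 libraries. Spp1 (chr5:104434861-104435110) is shown because no other member followed it closely. Capitals mark a match to a motif on either strand.
Trem2: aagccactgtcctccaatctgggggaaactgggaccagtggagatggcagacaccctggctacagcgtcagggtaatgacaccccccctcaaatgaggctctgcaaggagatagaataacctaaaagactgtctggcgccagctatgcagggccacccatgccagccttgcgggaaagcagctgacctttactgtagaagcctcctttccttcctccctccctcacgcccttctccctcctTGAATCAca
Gpnmb: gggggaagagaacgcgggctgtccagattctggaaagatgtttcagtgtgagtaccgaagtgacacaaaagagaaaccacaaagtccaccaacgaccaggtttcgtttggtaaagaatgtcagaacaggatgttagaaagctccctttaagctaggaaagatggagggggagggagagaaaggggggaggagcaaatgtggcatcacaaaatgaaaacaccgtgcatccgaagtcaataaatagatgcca
Spp1: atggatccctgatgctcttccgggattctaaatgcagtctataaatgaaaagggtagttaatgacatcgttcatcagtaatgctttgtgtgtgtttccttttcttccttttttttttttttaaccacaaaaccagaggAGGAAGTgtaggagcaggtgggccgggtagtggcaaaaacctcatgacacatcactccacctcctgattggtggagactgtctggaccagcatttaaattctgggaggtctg
The 3 motifs searched were CACGTG (the core of the E-box read by lysosomal MiT/TFE factors), AGGAAGT (a site of ETS factors) and TGANTCA (the site of Fos and Jun factors), which do not overlap in these windows. CACGTG was found in 0 of the 8 members, against 6.02% of 32851 RefSeq windows of the same length. AGGAAGT was found in 1 (Spp1), against 7.69% of the windows, and TGANTCA in 1 (Trem2), against 6.75%. A match describes the letters only, and the absence of one says nothing about the factor.

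Total counts per library ranged from 32.7 to 44.3 in units of 1e+06 reads, with a median of 37.6. The libraries fell into 2 sets by how much of the total fell on genes of small noncoding RNA, 22 in set 1 and 21 in set 2, and the SD group had 2 libraries in set 1 and 5 in set 2. The labels name no batch, so values within the sets are given for the calls that change there. Of the 43 libraries, 4 were taken to carry RNA of other tissue: SD library 4, SZ-A 400 libraries 3 and 6, and SZ-A 600 library 6. Each held 100 or more genes at 10 CPM or more and over 20 times their median over all libraries. These are called private genes below, although a gene could count in more than 1 library. The 12 adipocyte markers were above 0 in every library and summed to a median of 52124 CPM in SD and 22223 in HFD. Normalised CPM are counts divided by the library total, scaled by its TMM factor, times 1e+06. Sums over marker genes are given in CPM, which leaves out the TMM factor. The 20 general macrophage genes, none of them a member, were also above 0 in every library, with summed medians of 852 in SD and 10409 in HFD.

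Per length, the members spanned a wide range of transcript levels. In SD tissue the median FPKM was 1977 for Apoe, 133 for Plin2, 60.5 for Lgals3 and 44.0 for Cd63. It was 27.9 for Fabp5, 18.3 for Tyrobp, 11.5 for Cd9, 10.5 for Gpnmb, 4.21 for Spp1 and 1.59 for Trem2. Trem2 thus had the lowest median of the 10 in lean fat, and Apoe, the lipid carrier of lipoproteins, the highest. In HFD tissue the order was Apoe (1707), Lgals3 (1211), Gpnmb (548), Plin2 (518), Tyrobp (336), Cd63 (134), Cd9 (93.1), Fabp5 (90.8), Trem2 (82.1) and Spp1 (43.4), each a median FPKM. Apoe kept the first place, and the ranges of all neighbours in this order overlapped. In SD the ranges of Apoe and Plin2, and those of Cd63 and Fabp5, did not overlap.

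High-fat feeding was accompanied by higher levels of most members. With edgeR's quasi-likelihood test and an adjusted p under 0.05, taken over the whole table, 8 of 10 rose in HFD against SD and 0 fell, where 31.7% of all tested genes were called, 18.4% higher and 13.3% lower. The largest rises were those of Trem2 (32.0-fold), Gpnmb (29.8-fold), Lgals3 (18.1-fold) and Tyrobp (13.6-fold). Cd9, Fabp5, Plin2 and Cd63 rose 2.77-fold to 5.04-fold, and Spp1 and Apoe were not called. The members' median log2 fold change was 2.06, beside 2.91 for the 20 general macrophage genes (18 called higher) and -0.05 for all genes tested.

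**Figure D1:**
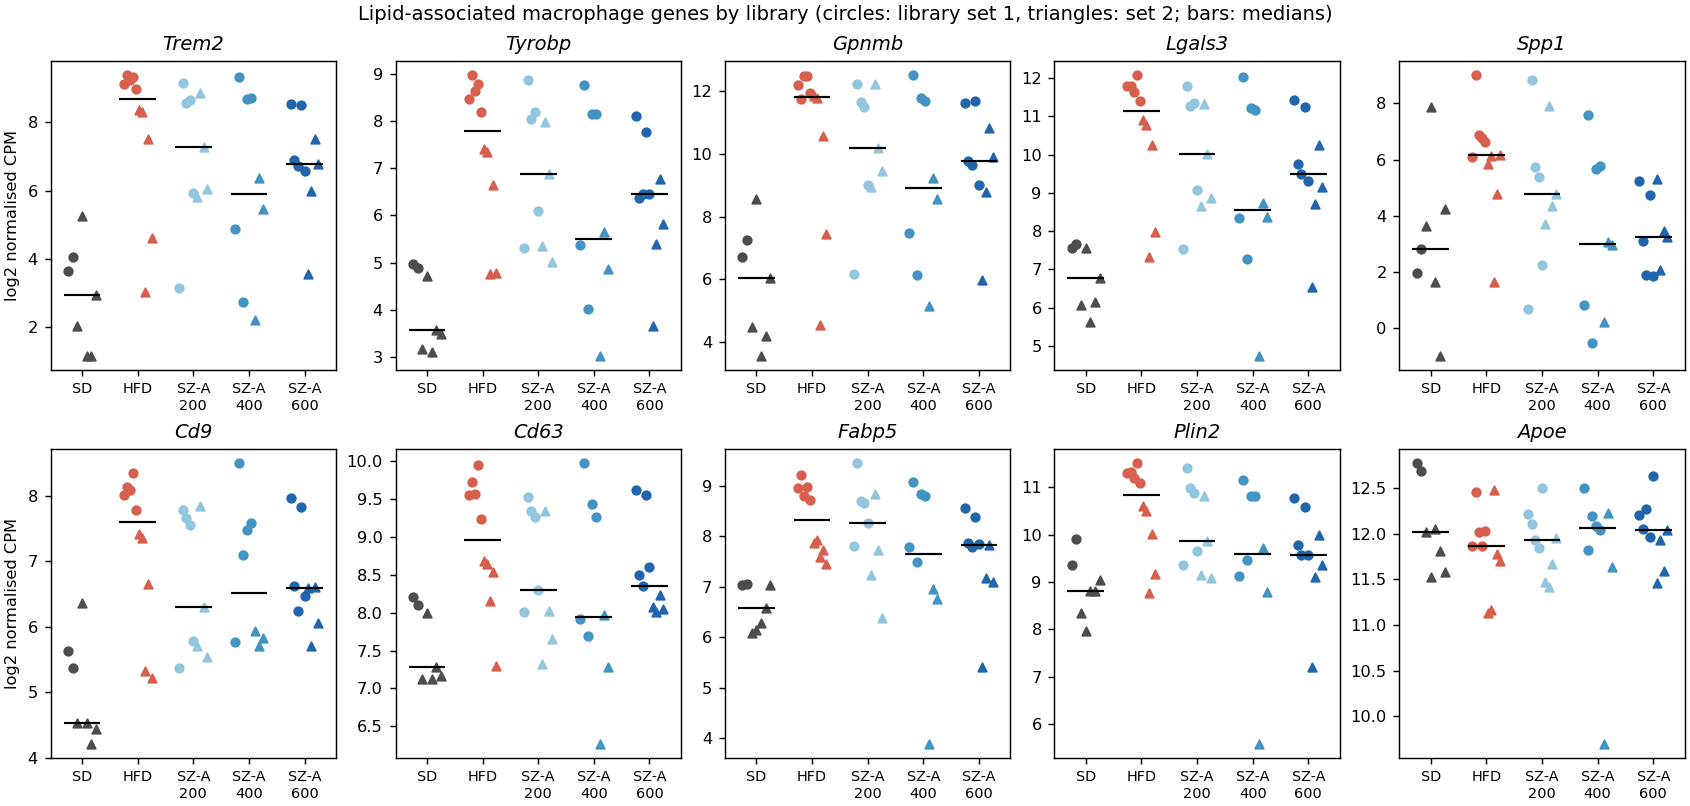
Log2 normalised CPM of each member (y axis, log scale, own range per panel) in every library of the 5 groups (x axis); circles are libraries of set 1, triangles of set 2, and bars are group medians. Most HFD points lie above the SD points for every gene but Spp1 and Apoe, with 2 low HFD libraries, and the SZ-A groups spread over much of the HFD range.

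Among the receptor genes, Trem2 (ENSMUSG00000023992, chromosome 17, 48653429 to 48661175 on the + strand, as the files give it) read 2.21, 7.62 and 38.1 normalised CPM in SD (lowest, median, highest). In HFD it read 8.09, 416 and 662. The library lowest in HFD was library 8, and library 10 came next at 24.5. The other 8 HFD libraries were above every SD library, so the groups overlapped through 2 HFD libraries. Its log2 fold change was 5.00 (SE 1.02, edgeR adjusted p = 4.70e-04), with 10 of 10 HFD libraries above the SD median.

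Tyrobp (ENSMUSG00000030579, chromosome 7, 30113185 to 30117010, + strand) encodes the adaptor through which TREM2 and other myeloid receptors signal. It read 8.51, 11.8 and 31.5 normalised CPM in SD and 27.1, 230 and 501 in HFD. Here too 8 HFD libraries were above all of SD. HFD exceeded SD by 3.76 on the log2 scale (SE 0.78, edgeR adjusted p = 5.58e-04).

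Gpnmb (ENSMUSG00000029816, chromosome 6, 49013480 to 49047863, + strand) encodes a transmembrane glycoprotein of lysosome-rich macrophages. Its values were 11.9, 65.9 and 376 normalised CPM in SD and 23.6, 3584 and 5629 in HFD. HFD library 8 was below the SD median, 8 HFD libraries were above all SD libraries, and the highest SD value was that of library 4. The rise was 4.90 on the log2 scale (SE 1.08, edgeR adjusted p = 9.40e-04).

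Lgals3 (ENSMUSG00000050335, chromosome 14, 47605208 to 47623617, + strand) encodes galectin-3, a secreted and cytoplasmic lectin abundant in phagocytes. It read 49.2, 109 and 201 normalised CPM in SD and 160, 2306 and 4325 in HFD. HFD library 8 lay inside the SD range and the other 9 lay above it. The log2 fold change was 4.18 (SE 0.83), with an edgeR adjusted p of 4.16e-04, the smallest of the members.

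The tetraspanins Cd9 and Cd63 organise membrane domains, Cd9 at the cell surface and Cd63 in late endosomes and lysosomes. Cd9 (ENSMUSG00000030342, chromosome 6, 125437229 to 125471754, - strand) read 18.5, 23.1 and 81.9 normalised CPM in SD and 37.2, 195 and 326 in HFD. Cd63 (ENSMUSG00000025351, chromosome 10, 128736858 to 128748691, + strand) read 140, 156 and 295 in SD and 157, 506 and 984 in HFD. In both genes 8 HFD libraries were above every SD library and 10 of 10 were above the SD median. The log2 fold change was 2.33 for Cd9 (SE 0.50, edgeR adjusted p = 7.40e-04) and 1.47 for Cd63 (SE 0.41, adjusted p = 0.00669). Counts of the pseudogene Cd63-ps were 5.32% to 7.96% of those of Cd63 in every library, so the split of reads between these near copies is uncertain.

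The lipid-handling genes Fabp5 and Plin2 rose 3.47-fold and 3.41-fold. Fabp5 (ENSMUSG00000027533, chromosome 3, 10077608 to 10081667, + strand), a carrier of fatty acids in the cytoplasm, read 68.2, 95.9 and 133 normalised CPM in SD and 175, 332 and 592 in HFD. It was the only member whose HFD and SD libraries did not overlap, where 1.59% of all tested genes were higher without overlap. Its log2 fold change was 1.79 (SE 0.45, edgeR adjusted p = 0.00292).

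Plin2 (ENSMUSG00000028494, chromosome 4, 86566623 to 86588297, - strand) coats lipid droplets. It read 251, 450 and 958 normalised CPM in SD and 436, 1865 and 2911 in HFD. HFD library 8 was below the SD median, and 8 HFD libraries exceeded all of SD. On the log2 scale it rose by 1.77 (SE 0.50, edgeR adjusted p = 0.0067).

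Spp1 (ENSMUSG00000029304, chromosome 5, 104582984 to 104588916, + strand), the gene of the secreted phosphoprotein osteopontin, was the most uneven member. It read 0.459, 6.98 and 233 normalised CPM in SD and 3.06, 71.2 and 515 in HFD. The SD value of 233 was that of library 4, and the next was 19.0. In HFD 9 of 10 libraries were above the SD median but only 1 was above the highest SD library. The log2 fold change was 1.51 (SE 1.08, edgeR adjusted p = 0.278), and without SD library 4 it was 3.87 and passed the test. SD library 4 was 1 of the 4 libraries with other tissue RNA, with 6 epithelial markers summing to 907 CPM against an SD median of 5.89. Without those 4 libraries the log2 fold change was 3.89 (edgeR adjusted p = 0.00612). The part of that RNA in the Spp1 value was not tested.

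Apoe (ENSMUSG00000002985, chromosome 7, 19430034 to 19433113, - strand) did not pass the test between the diets over all libraries. It read 2951, 4141 and 6993 normalised CPM in SD and 2249, 3733 and 5711 in HFD, with 6 of 10 HFD libraries below the SD median. The groups overlapped over most of their range. The log2 fold change was -0.23 (SE 0.25, edgeR adjusted p = 0.489).

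The diet differences were taken again within the library sets. Within set 1 the same test called 8 members higher and Apoe lower (log2 fold change -0.72, edgeR adjusted p = 0.0192), where 36.4% of all genes tested there were called, 17.5% higher and 18.8% lower. Within set 2 no member passed edgeR's test, where 1.59% of genes were called. Log2 fold changes there were 3.94 for Trem2 (edgeR adjusted p = 0.0705), 4.12 for Gpnmb (adjusted p = 0.0947) and -0.25 for Spp1. At an unadjusted p under 0.05 there were 8 members, and the share of all genes at that threshold is not given here. With SD library 4 and the other libraries of other tissue RNA left out of set 2, 6 members were called higher, where 6.10% of genes were: Trem2, Tyrobp, Cd9, Gpnmb, Cd63 and Lgals3. No member's diet difference was called as different between the sets (edgeR interaction, adjusted p of 0.544 to 0.906, 0% of genes called). Of the members 1, Spp1, had an unadjusted p under 0.05 (0.0401, edgeR interaction). The share of all genes at that threshold is not given here.

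HFD libraries 8 and 10 were low in the general macrophage genes as well. Those 20 genes summed to 1154 and 1621 CPM there, against a group median of 10409. The same 2 libraries read 78754 and 45405 CPM over the 12 adipocyte markers, against an HFD median of 22223. The members' low values in libraries 8 and 10 thus stood beside few macrophage transcripts and many adipocyte transcripts. HFD library 9 had a like adipocyte sum (45848 CPM), with 4321 CPM over the general macrophage genes and Trem2 at 181 normalised CPM. The part of tissue makeup in the members' values was not tested.

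Most other genes listed for this macrophage state were also higher on the high-fat diet. This list and those below were chosen with earlier results of these data known. Their counts are therefore a description and no independent support. Of 24 further genes listed for lipid-associated macrophages, 16 rose and 0 fell (1 fell with upper-quartile factors), with a median log2 fold change of 2.12. Of all tested genes 18.4% were called higher and 13.3% lower. Itgax, the CD11c integrin subunit, rose by 5.36 on the log2 scale (SE 0.87, edgeR adjusted p = 1.03e-04), and Slc37a2, a sugar phosphate transporter, by 4.58. Dcstamp, a fusion protein of multinucleated phagocytes, rose by 4.74, and Nceh1, a cholesteryl ester hydrolase, by 3.51. The least changed of the list were the acid phosphatase Acp5 (-0.02) and the fatty acid receptor Cd36 (0.06).

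The lists that follow stand beside the same 18.4% of all tested genes called higher. Of 17 genes of TREM2 signalling and its receptor family, 15 were tested and 13 rose, with a median of 1.98. Plcg2, the phospholipase downstream of TREM2, rose by 2.36 (SE 0.42, edgeR adjusted p = 2.20e-04), Btk by 2.92, the adaptor Grb2 by 1.29, and Adam17, a protease that sheds TREM2, by 1.35. The other TREM2 sheddase, Adam10, had a log2 fold change of 0.36 and was not called, nor was Treml2 (0.62). The 4 MiT/TFE genes, whose products switch on lysosomal genes, all rose: Tfec by 1.95, Tfeb by 1.38, Mitf by 0.91 and Tfe3 by 0.69.

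Among relatives, ligands and receptors of the members, 9 of 20 tested rose and 0 fell, with a median of 0.50. For all tested genes these shares were 18.4% higher and 13.3% lower. Cd44, a receptor of osteopontin, rose by 3.36 (SE 0.62, edgeR adjusted p = 2.85e-04), the droplet protein Plin3 by 1.21 and the galectin Lgals9 by 0.69. The tetraspanins Cd82 (0.02) and Cd81 (0.12) were not called. Of 10 resident macrophage genes 3 rose, namely Folr2 by 2.85, Mrc1 by 2.03 and Pf4 by 1.55, while Cd163 (0.12) and Timd4 (-0.23) were not called. In a list of 10, a count of 3 lies near the share of all tested genes, and no reading is drawn from it. The members' share of 8 in 10 lay between that of the general macrophage genes and that of the resident genes, and these shares were not tested against each other.

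With SZ-A at 200 mg/kg/day no member passed edgeR's test against HFD, and DESeq2 and limma voom with quality weights called 0 as well. By edgeR 0.00989% of all tested genes were called. At an unadjusted p under 0.05 the edgeR count of members was also 0, where 6.91% of all tested genes had one. Log2 fold changes ranged from -0.67 to 0.03 with a median of -0.46, beside -0.60 for the general macrophage genes. Trem2 read 8.90, 155 and 567 normalised CPM, Gpnmb 71.6, 1149 and 4782, and Lgals3 185, 1033 and 3581. The libraries spread from near SD levels to HFD levels: 7 of 9 were below the HFD median for Trem2, Gpnmb and Spp1, and 5 of 9 for Tyrobp, Lgals3, Fabp5 and Cd63.

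At 400 mg/kg/day no member passed by edgeR, DESeq2 or limma voom, where edgeR called 2.87% of all tested genes. By edgeR 0 members had an unadjusted p under 0.05, where 18.2% of all tested genes had one. The fitted log2 fold changes lay between -1.52 and 0.03 with a median of -0.76, beside -0.90 for the general macrophage genes. Trem2 read 4.65, 63.0 and 636 normalised CPM, Tyrobp 8.12, 45.6 and 430, and Spp1 0.644, 8.00 and 193. Library 2 of this group was at or near the HFD maximum in most members, and above every HFD library in Cd9 (360), Gpnmb (5790) and Cd63 (1004). Library 6, with 580 private genes, was the lowest of the 8 in every member but Cd9 and Spp1, including Apoe at 832.

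At 600 mg/kg/day no member passed edgeR's test, where 11.6% of all tested genes were called and 6.47% were called lower. At an unadjusted p under 0.05 there were 2 (Spp1 and Plin2), where 29% of all tested genes had one. DESeq2 called 1 lower (Spp1), where it called 9.05% of genes lower, and limma voom with quality weights called 9 lower, where it called 22.2% lower. The members' median log2 fold change was -1.02. For the general macrophage genes it was -1.42, and 10 of 20 of them fell.

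Trem2 read 11.7, 110 and 367 normalised CPM at this dose, with 9 of 9 libraries below the HFD median of 416. Its log2 fold change was -1.28 (SE 0.77, edgeR adjusted p = 0.269), and the range stayed inside that of HFD. Tyrobp read 12.5, 87.4 and 276, with a log2 fold change of -1.19 (SE 0.63, adjusted p = 0.202). No SZ-A 600 library was above the highest HFD library for either gene.

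Gpnmb read 63.2, 881 and 3281 normalised CPM and Lgals3 92.1, 721 and 2771. Their log2 fold changes were -1.28 (SE 0.82, edgeR adjusted p = 0.302) and -1.06 (SE 0.65, adjusted p = 0.282). All 9 libraries were below the HFD median for Gpnmb and 7 of 9 for Lgals3.

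Plin2 read 147, 763 and 1745 normalised CPM, and 9 of 9 libraries were below the HFD median of 1865. Its log2 fold change of -0.98 (SE 0.44) had an edgeR adjusted p of 0.134. Fabp5 read 42.5, 227 and 376, with a log2 fold change of -0.70 (SE 0.40, adjusted p = 0.240). Within set 1 both passed, at -1.11 (adjusted p = 0.0393) and -0.78 (adjusted p = 0.0424), and within set 2 neither did, at -0.78 and -0.62.

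The tetraspanins and Apoe differed least from HFD. Cd9 read 51.8, 96.2 and 251 normalised CPM, with a log2 fold change of -0.67 (SE 0.43, edgeR adjusted p = 0.299). Cd63 read 257, 327 and 785, with -0.43 (SE 0.37, adjusted p = 0.453), and Apoe 2827, 4227 and 6370, with 0.14 (SE 0.23, adjusted p = 0.717). These 3 genes overlapped HFD over most of the range of both groups.

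Spp1 showed the largest fitted difference of the members. It read 3.58, 9.41 and 39.7 normalised CPM at 600 mg/kg/day, with 9 of 9 libraries below the HFD median of 71.2 and none below the lowest HFD library. The log2 fold change was -2.83 (SE 1.04, edgeR adjusted p = 0.0646). It passed the test when SD library 4 or HFD library 8 was left out of the common fit (-2.82 and -2.96), and without the 4 libraries of other tissue RNA (-3.15, adjusted p = 0.028). The highest value, 39.7, was that of library 6, which held 752 private genes. Without HFD library 2, which had the highest HFD value of 515, the log2 fold change was -2.12.

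**Figure D2:**
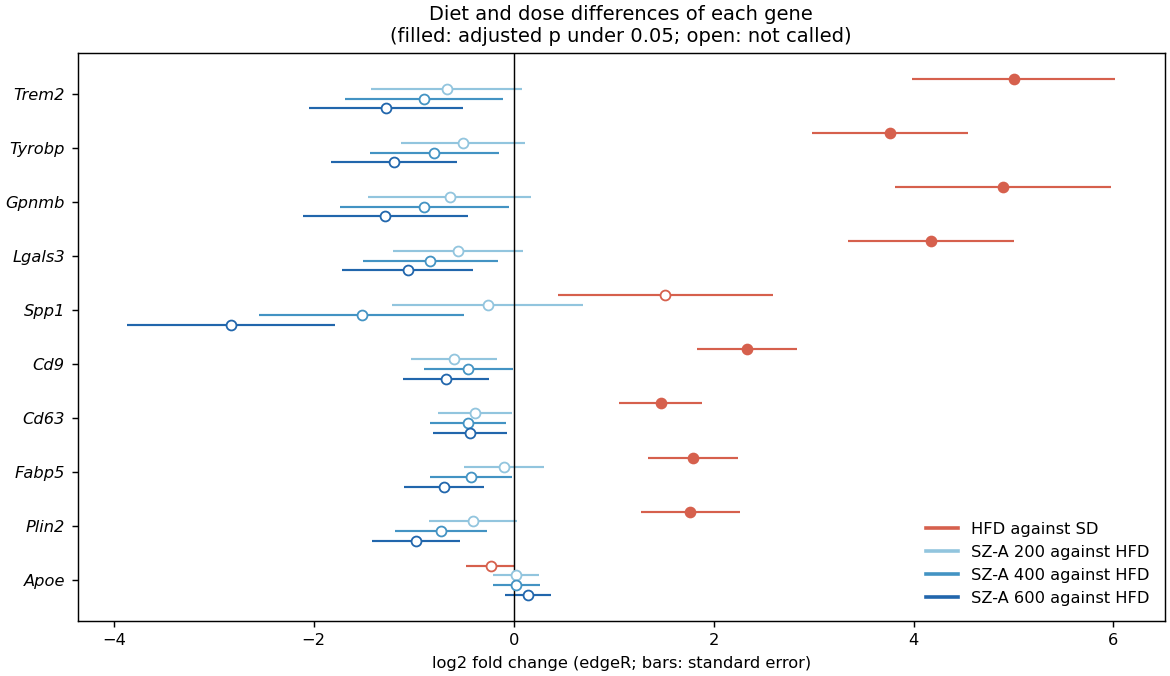
Log2 fold change (x axis) of each member (y axis) for HFD against SD and for the 3 SZ-A doses against HFD, from edgeR, with standard errors as bars; filled points passed an adjusted p under 0.05. Diet differences reach 5.00 for Trem2, dose differences lie between -2.83 and 0.14, and 0 dose points are filled.

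A linear trend with dose over the high-fat groups (36 libraries) was taken per step of 200 mg/kg/day. It was a contrast of the group terms in the common fit of the 43 libraries. Spp1 fell by 0.98 per step on the log2 scale (SE 0.33, edgeR adjusted p = 0.0415), and it was the 1 member of 10 to pass, where 14.7% of all tested genes were called and 7.86% were called lower. The values of the other members ran from -0.41 (Trem2, SE 0.24, adjusted p = 0.255, and Gpnmb, SE 0.26, adjusted p = 0.286) to 0.04 (Apoe, adjusted p = 0.730). Plin2 came closest, at -0.33 (SE 0.14, adjusted p = 0.108). The median was -0.34, beside -0.44 for the general macrophage genes, of which 10 of 20 fell. The Spp1 call was lost on leaving out any 1 of 14 libraries (HFD 1 to 5, SZ-A 200 2 and 7, SZ-A 600 2, 3 and 5 to 9), with values from -1.06 to -0.76, and it was lost within each library set (-1.13 and -0.82). Within set 1 the members called lower with dose were Plin2 (-0.35, edgeR adjusted p = 0.0416) and Fabp5 (-0.25, adjusted p = 0.0427), where 11.9% of genes were called lower. Within set 2 there were 0, where 0% of genes were called lower, and 0 members had an unadjusted p under 0.05.

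The other lists were read beside all tested genes, of which 6.47% were called lower at 600 mg/kg/day and 7.86% with dose. Of the 24 other genes of lipid-associated macrophages 1 fell at 600 mg/kg/day, the receptor tyrosine kinase Axl, which clears dying cells (log2 fold change -0.98, SE 0.27, edgeR adjusted p = 0.0184). With dose 2 fell, Axl by 0.33 and the lysosomal protease Ctsl by 0.39 per step. In the TREM2 signalling list 5 of 15 fell at 600 mg/kg/day, with a median of -1.31, and 9 of 15 fell with dose. They included Adam17 (-1.12 at the highest dose, adjusted p = 0.00612), Ms4a4a, whose membrane protein is tied to soluble TREM2 levels (-1.31), and, with dose, the phosphatase Inpp5d (-0.52 per step). The APOE receptor gene Lrp1 (-0.96) and Lgals9 (-0.58) fell at 600 mg/kg/day, as did the resident genes Folr2 (-2.13) and Mrc1 (-1.49) and the MiT/TFE gene Tfe3 (-0.49).

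Markers of other cells were read at the same dose, where 5.12% of all tested genes were called higher and 6.47% lower. At 600 mg/kg/day 4 of 5 B cell markers fell, with a summed median of 13.0 CPM against 33.8 in HFD. Of 7 fibroblast markers 3 fell, with a summed median of 1924 CPM against 5791 in HFD and 1580 in SD. Of the 12 adipocyte markers 1 rose and 0 fell, and they summed to a median of 48471 against 22223 in HFD, with overlapping ranges of 22518 to 59113 and 14876 to 78754. Of 6 epithelial markers 5 rose at this dose, with summed ranges of 1.56 to 1416 and 1.09 to 13.1. The summed medians were 7.51 CPM against 3.70 in HFD. The value of 1416 was that of library 6, which carried RNA of other tissue, and the next highest was 20.3. The part of these markers in the members' values was not tested.

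Against SD, 5 or 6 of the members were called higher at each dose over all libraries, and at most 1 within a library set. These comparisons share the SD libraries with the diet comparison and are given as separate values. At 200 mg/kg/day 6 of 10 rose (15.4% of all genes called, 10.8% higher), at 400 mg/kg/day 6 (10.9% called, 8.29% higher) and at 600 mg/kg/day 5 (3.36% called, 2.01% higher), the 5 being Trem2, Tyrobp, Cd9, Gpnmb and Lgals3. The members' median log2 fold changes were 1.72, 1.62 and 1.38, beside 2.37, 2.00 and 1.53 for the general macrophage genes, of which 18, 14 and 4 of 20 rose. Trem2 exceeded every SD library in 8 of 9, 5 of 8 and 8 of 9 libraries at the 3 doses. Within set 1, which held 2 of the SD libraries, edgeR called 1, 1 and 0 members at the 3 doses (Fabp5 both times), where 6.99%, 7.11% and 2.51% of genes were called. Within set 2 it called 0 members at each dose, where 0%, 0.00916% and 0.00458% of genes were called. At an unadjusted p under 0.05 there were 7, 0 and 5 members, and the share of all genes at that threshold is not given here. At 400 mg/kg/day the count was 0 with only these groups in the fit and 1 on either FPKM scale, and at 600 mg/kg/day the count of 5 dropped to between 0 and 3 on leaving out any 1 of 12 libraries (SD 1, 2, 3 and 5 to 7, SZ-A 600 1 to 5 and 8).

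To ask whether the members followed the general macrophage genes, each library was given a macrophage score, the mean log2 normalised CPM of the 20 general genes. The score was 4.77 ± 0.59 in SD (SD of 7 libraries), 7.37 ± 1.28 in HFD, 6.80 ± 1.16, 6.02 ± 1.62 and 6.09 ± 0.91 at 200, 400 and 600 mg/kg/day. Each gene was then regressed on the score with a term for each group (limma), so that the slope gives the change in log2 CPM per unit of score among libraries of the same diet and dose. A slope of 1 means that a gene moved one for one with the score.

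The slope was called positive for 9 of 10 members, all but Apoe, where 51.2% of all tested genes were called and 25.7% were called positive. None of the 10 slopes had an interval that held 1, and the members fell into 3 kinds. The first were steeper than the score: Gpnmb with a slope of 1.78 (95% interval 1.56 to 1.99), Trem2 with 1.66 (1.49 to 1.82), Spp1 with 1.44 (1.02 to 1.87), Lgals3 with 1.35 (1.22 to 1.49) and Tyrobp with 1.26 (1.16 to 1.36). An interval above 1 was found for 0.559% of all tested genes, for 7 of the 20 general macrophage genes and for 9 of the 24 other genes of lipid-associated macrophages. Genes of macrophages were chosen for both lists, and the score is a mean of the general genes, so their counts are given as a description.

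The second kind followed the score less steeply. Plin2 had a slope of 0.80 (0.63 to 0.96), Cd9 0.71 (0.57 to 0.85), Fabp5 0.67 (0.49 to 0.84) and Cd63 0.62 (0.51 to 0.74). The third was Apoe alone, with 0.06 (-0.09 to 0.21, limma adjusted p = 0.509). Its level, between 832 and 6993 normalised CPM over all libraries, bore no slope on the score that this test could tell from 0 over all libraries. Within set 1 its slope was negative and called (-0.14, -0.25 to -0.04, limma adjusted p = 0.0297), and within set 2 it was -0.046 and not called. Within set 2 the intervals of Tyrobp (1.12, 0.97 to 1.26) and Spp1 (1.05, 0.13 to 1.97) held 1, while the same 5 slopes remained above 1 in all 10 alternatives run.

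**Figure D3:**
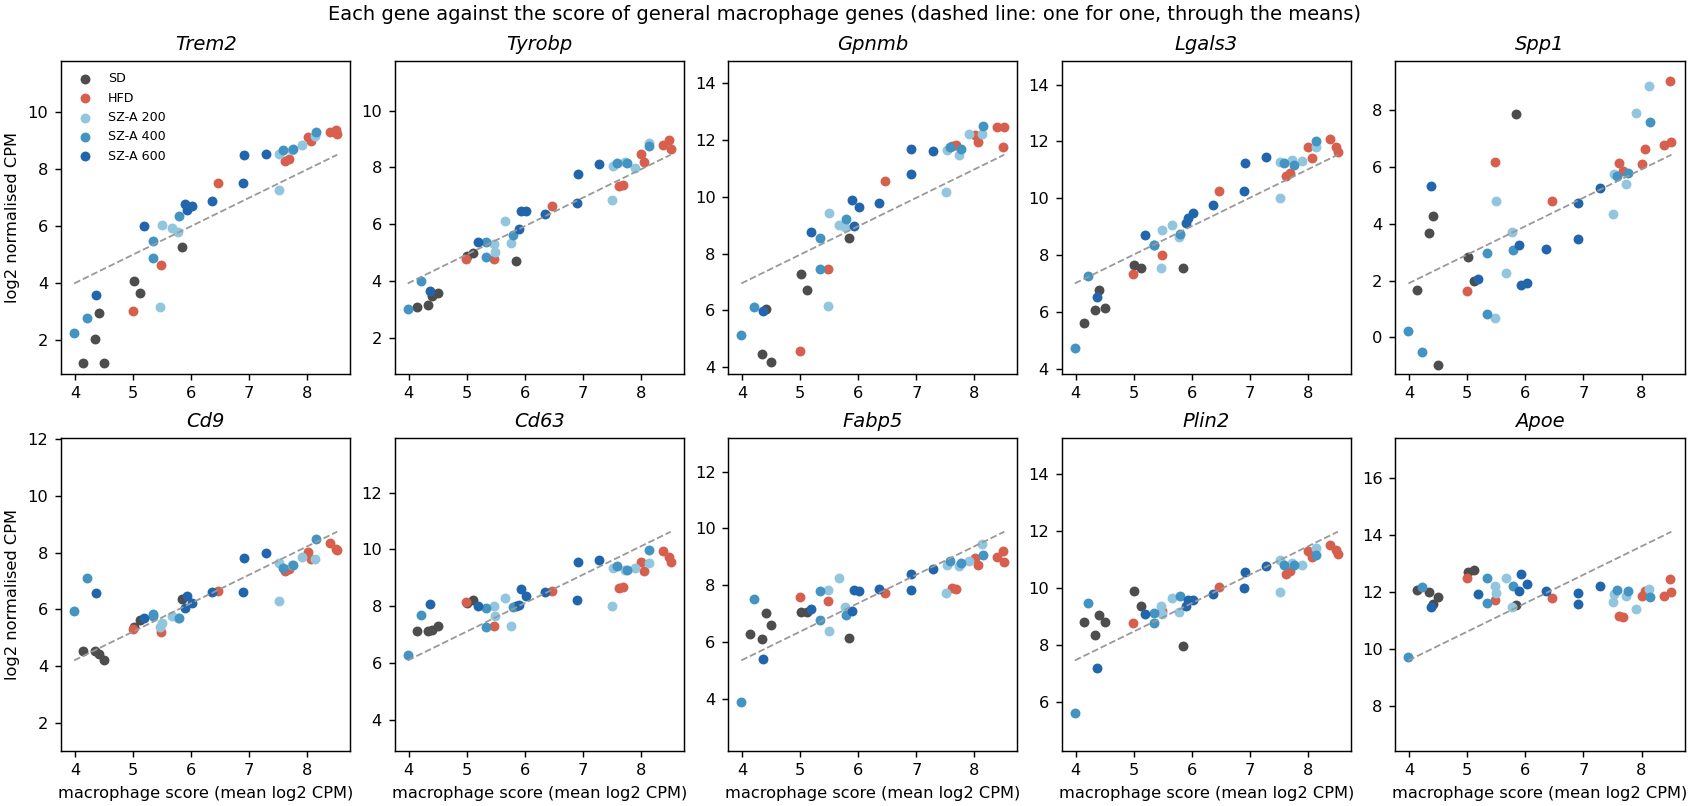
Log2 normalised CPM of each member (y axis) against the macrophage score (x axis, mean log2 CPM of 20 genes) in the 43 libraries, coloured by group; the dashed line is one for one through the means and all panels span the same number of log2 units within a row. Gpnmb and Trem2 climb more steeply than the line, Cd63 and Fabp5 less steeply, and Apoe is flat apart from 1 low SZ-A 400 library.

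The other genes of lipid-associated macrophages fell into the same range of slopes. The matrix protease Mmp12 (1.88, 1.57 to 2.20) and the proton pump subunit Atp6v0d2 (1.77, 1.54 to 2.00) were as steep as Gpnmb. The cathepsins Ctsb (0.69), Ctsz (0.70), Ctsd (0.68) and Ctsl (0.75) lay beside Cd9 and Fabp5. Fabp4 (-0.01, -0.24 to 0.21), the fatty acid carrier of adipocytes, and the cholesterol exporter Abca1 (0.05, -0.06 to 0.16) lay beside Apoe. These values are slopes and not levels.

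**Figure D4:**
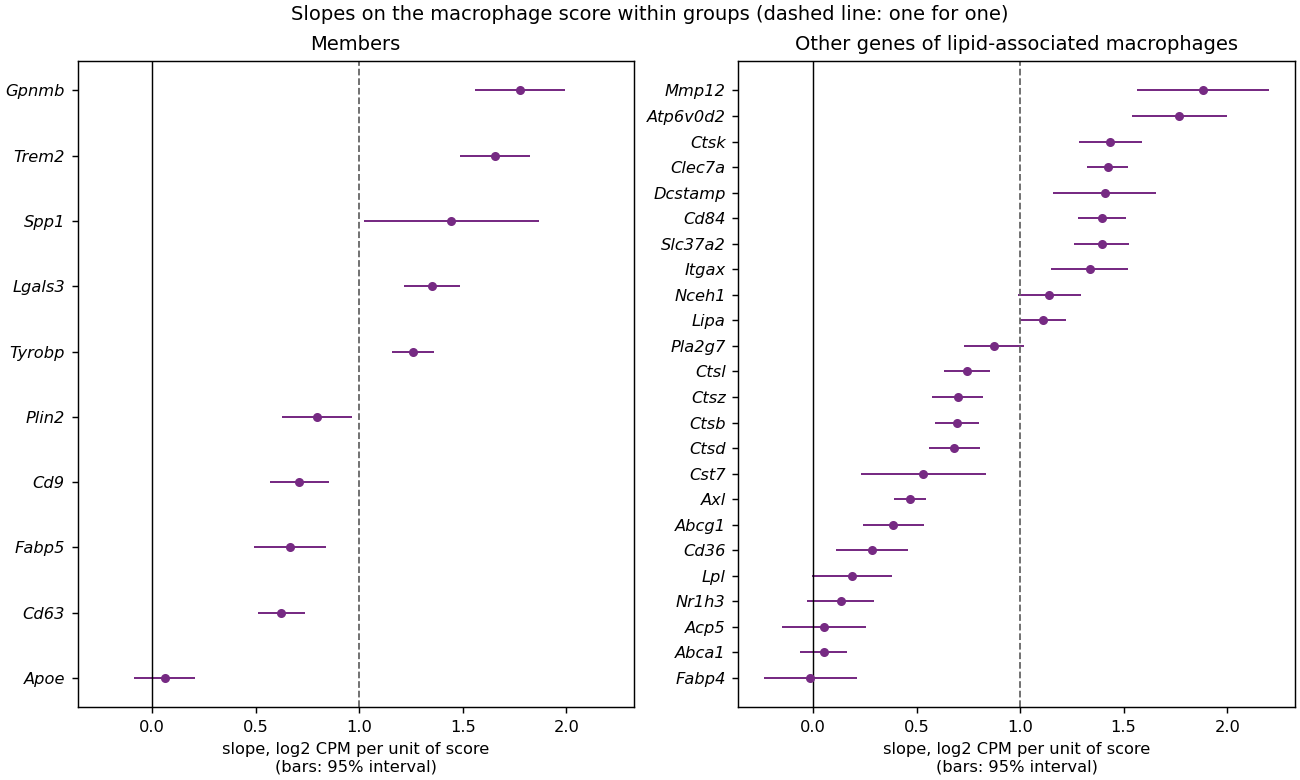
Slope on the macrophage score within groups (x axis, log2 CPM per unit of score, bars are 95% intervals) for the 10 members and for 24 other genes of lipid-associated macrophages (y axes); the dashed line marks a slope of 1. The members range from 0.06 (Apoe) to 1.78 (Gpnmb), and the other genes cover a like span.

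Relative to the score the diet difference was uneven. The score itself was 2.60 higher in HFD than in SD, and each gene's log2 difference was taken after subtracting it (limma). Trem2 rose beyond the score by 2.28 (SE 0.51, adjusted p = 1.65e-04), Gpnmb by 2.26 (SE 0.59, adjusted p = 5.97e-04), Lgals3 by 1.22 (SE 0.39, adjusted p = 0.00356) and Tyrobp by 0.81 (SE 0.34, adjusted p = 0.0242). Only 0.43% of all tested genes were called higher on this scale, and 93.8% were called lower, since most genes did not rise with the score (94.2% called in all).

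The other called members lagged behind the score. The difference relative to it was -0.89 for Fabp5 (limma adjusted p = 0.0444), -0.94 for Plin2 (adjusted p = 0.0238), -1.24 for Cd63 (adjusted p = 0.00244) and -2.82 for Apoe (adjusted p = 1.44e-04). Cd9 (-0.38) and Spp1 (0.36) were not called. The call of Tyrobp was lost without SD library 3 (0.75), that of Plin2 without SD library 2, 5 or 7, and that of Fabp5 without any 1 of 13 libraries (SD 1, 2, 3 and 5 to 7, and HFD 1 to 7), with values of -1.14 to -0.76. Within the sets fewer of these calls held, 5 in set 1 and 3 in set 2, where 86.8% and 54.3% of genes were called. Trem2 (2.12 and 2.04), Gpnmb (1.93 and 2.06) and Apoe (-3.91 and -1.94) were called in both sets, and Cd63 and Plin2 in set 1. The calls of Tyrobp, Lgals3 and Fabp5 ended in both sets. Without the 2 libraries of farthest score, those of Tyrobp, Fabp5 and Plin2 ended.

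For each SZ-A dose against HFD no member differed relative to the score by limma. At an unadjusted p under 0.05 there were 0 members at 200 mg/kg/day, 2 at 400 mg/kg/day (Cd9 and Apoe) and 2 at 600 mg/kg/day (Cd63 and Apoe), where 0.994%, 64.2% and 62.1% of all tested genes had one. After adjustment 0%, 0.00495% and 0.00495% of all tested genes were called. The score itself differed from that of HFD by -0.57, -1.35 and -1.27 at the 3 doses. Leaving out single libraries gave counts of 0 to 4 at 400 mg/kg/day (HFD 8, 9 or 10, SZ-A 400 2, 4 or 5, SZ-A 600 6) and 0 to 2 at 600 mg/kg/day (HFD 8, 9 or 10, SZ-A 400 2, 3, 5 or 6, SZ-A 600 1, 4 or 8). In those omissions 45.8% to 76.6% of all genes were called at 400 mg/kg/day and 33.1% to 73.7% at 600 mg/kg/day, so the members' counts lay below the share of all genes.

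A further fit, added after the values were seen, kept the score as a covariate with its own slope for each gene, so that groups were compared at equal score. For HFD against SD no member was called by limma, where 0.0742% of all tested genes were called. At an unadjusted p under 0.05 there were 0 members, where 8.58% of all tested genes had one. Trem2 had a difference of 0.57 (SE 0.37, limma adjusted p = 0.738). For 600 mg/kg/day against HFD none was called either (0.737% of genes called), with 5 members at an unadjusted p under 0.05, where 13.8% of genes had one. These were Gpnmb at 1.25 (SE 0.39, adjusted p = 0.106), Trem2 at 1.11 (SE 0.30, adjusted p = 0.0562), Lgals3 at 0.68 (adjusted p = 0.177), Tyrobp at 0.52 (adjusted p = 0.172) and Cd63 at 0.42 (adjusted p = 0.352). All 5 were fitted higher at 600 mg/kg/day than in HFD at equal score, while their unadjusted levels were fitted lower. Scores ran from 4.14 to 5.85 in SD, 4.99 to 8.51 in HFD and 4.37 to 7.28 at 600 mg/kg/day. The HFD median of 7.85 lay above every SD and SZ-A 600 library. These comparisons therefore lean on a slope common to all groups, carried beyond the scores they share. At 200 and 400 mg/kg/day 0 members had an unadjusted p under 0.05 by limma, where 7.18% and 7.87% of genes had one.

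The members also differed in which of them ran together. The likeness of 2 genes was measured as the root mean square of the difference between their centred log2 CPM over the 43 libraries, which share depth and tissue makeup, and a smaller value means more alike. Trem2 and Gpnmb stood 0.36 apart, Fabp5 and Plin2 0.37, and Tyrobp and Lgals3 0.39. Cd63 stood 0.55 from Fabp5 and 0.56 from Cd9. Spp1 was at least 1.77 from every other member, and Apoe was 0.90 from Cd63, its nearest, and 2.70 from Gpnmb. Values of neighbours share no error estimate and carry no test.

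Of all tested genes with a named symbol, those most like each member were taken by the same measure. For Trem2 they were Atp6v0d2 (0.50), the growth factor gene Gdf3 (0.55) and the protease gene Adam8 (0.57), and for Gpnmb Atp6v0d2 (0.46), Gdf3 (0.63) and Dhrs9 (0.64). For Tyrobp they were Lyz2 (0.28), the myeloid transcription factor gene Spi1 (0.34) and Clec4a2 (0.35), and for Lgals3 Arl11 (0.29), Cd68 (0.31) and Arhgap25 (0.37). Fabp5 and Plin2 shared the cathepsin genes Ctsz (0.35 and 0.35) and Ctsb (0.37 and 0.38), with Vim (0.35) next to Fabp5 and Tmem106a (0.41) next to Plin2.

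Cd9 lay nearest to Dnase2a (0.33), Pycard (0.38) and Rnh1 (0.41). Cd63 lay nearest to its pseudogene Cd63-ps (0.11), then Rilpl2 (0.28) and Tnfsf12 (0.30). For Apoe the nearest were Fcgrt (0.20), Ypel5 (0.27) and Gabarapl1 (0.28). For Spp1 no gene came closer than Timp1 (1.26), followed by Melk (1.37) and Hrob (1.38). Genes of a flat profile lie close to each other on this measure: the standard deviation of Apoe over the libraries was 0.51 log2 units, and that of Gpnmb 2.68.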

How the data were processed

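The authors deposited read counts per gene and FPKM per gene for the 43 libraries, per the file headers. Per the labels, TRIzol RNA was selected for poly(A) and made into dUTP strand-specific libraries that were read as paired ends. The aligner and counting program: not given in the sources used here. Per the submitters' processing notes the build was mm10, yet 0 of the 10 members had the start or end of the GRCm38 annotation. Gene coordinates are therefore those of the files, of an unresolved build. The deposited FPKM were used for levels between genes and, on log2(FPKM + 1) and log2(FPKM + 0.1), for alternatives.

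Counts were filtered with filterByExpr and tested with edgeR 4.0.16 in R 4.3.3: TMM factors, a robust quasi-likelihood test and group terms in a single fit of the 43 libraries. A gene was called when its p, adjusted by Benjamini-Hochberg over the 20218 genes tested, was under 0.05. Slopes on the macrophage score and differences relative to it came from limma 3.58.1 on log2 CPM with a prior count of 2. Alternatives covered DESeq2 1.42.0, other scalings, filters, the FPKM scales, voom, the replicate number as a block, library sets, and each library left out in turn. The statistics were tested on simulated data. Python 3.11.15 with matplotlib 3.10.9 made the figures. Chosen after seeing the data were the fits of set 2 without other-tissue libraries, without SD library 4 and HFD library 8, with an interaction of group and set, and at equal score.

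The members and gene lists were chosen with earlier results of these data known. All members are named throughout. From each other list, up to 4 called genes of smallest p and up to 2 uncalled genes of largest p are named for HFD against SD, and up to 2 called genes of smallest p elsewhere. A gene that this rule selects is not reported here. The list genes whose slopes are named were chosen after their values were seen. Groups and doses come from the labels. The library sets, and the libraries carrying RNA of other tissue (100 or more genes at 10 CPM or more that exceeded the median by over 20 times), were defined from the data.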

Additional observations from a re-analysis of the deposited data

Results flagged for a closer look

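Dixon's criterion at the 95% level was applied to 55 groups of 7 to 10 libraries (each member and the macrophage score in each group). Chance alone gives about 1 in 20 groups when values are normal and groups independent. The members were tested on normalised CPM, not on the log2 scale as the score was, and they share libraries. That rate may therefore not hold here. In 6 of the 55 groups the highest library stood apart from the rest. In SD the library was library 4 each time, with 233 normalised CPM for Spp1 (the next was 19.0), 376 for Gpnmb (next 154) and 38.1 for Trem2 (next 16.5). The same library held 537 private genes of other tissue and had the highest macrophage score of the SD group (5.85, against a median of 4.50). In HFD library 2 read 515 for Spp1 against 118 for the next. In SZ-A 400 library 2 read 193 for Spp1 (next 54.7) and 360 for Cd9 (next 191), and it also had the highest macrophage score of its group, 8.14.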

How the results depend on the processing

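Counts of 0 members called for SZ-A 200 against HFD, SZ-A 400 against HFD and SZ-A 200 relative to the score were the same in every alternative run, single omissions included. The 9 slopes called were 10 within set 1, 8 within set 2 and 9 in the other alternatives. Of the results for single members, 622 of 700 kept their direction and their side of the threshold, and so did 2114 of 2150 with 1 library left out. The causes of the changes below were not tested.

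Members called for HFD against SD (8) were 0 within set 2 (1.59% of all genes called), and 8 to 9 with 1 library left out. For SZ-A 600 against HFD (0) there was 1 with DESeq2, with only the groups compared, without the other-tissue libraries and without SD library 4 and HFD library 8. Of all genes 15.1%, 13.9%, 11.4% and 20.8% were called in these settings. There were 2 within set 1 or without other-tissue libraries and with a set term, 9 with voom, and 0 to 1 in single omissions. Of all genes 29.6% were called within set 1, 24.9% without other-tissue libraries and with a set term, and 44.2% with voom. For the trend (1) there were 0 on log2(FPKM + 0.1), without a filter, within set 2 and within set 2 without other-tissue libraries. Of all genes 9.11%, 8.53%, 0.0183% and 0.00922% were called there. There were 2 within set 1, 3 with a set term with or without other-tissue libraries, 8 with voom and 0 to 1 in single omissions. Of all genes 27.4% were called within set 1, 25.1% and 23.9% with a set term, and 41.7% with voom.

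Against SD, SZ-A 200 (6) gave 1 within set 1, 0 within set 2 with or without other-tissue libraries, and 6 to 8 in single omissions. Of all genes 6.99% were called within set 1 and 0% within set 2 both ways. SZ-A 400 (6) gave 1 on either FPKM scale and within set 1, 0 with only the groups compared and within set 2 with or without other-tissue libraries, and 4 to 6. Of all genes 5.56% were called on each FPKM scale and 7.11% within set 1. With only the groups compared 0.747% were called, and within set 2 0.00916% with and 0% without other-tissue libraries. SZ-A 600 (5) gave 8 with voom, 2 on log2(FPKM + 1), 1 without a filter, 3 with a set term, 0 within either set and within set 2 without other-tissue libraries, and 0 to 5. Of all genes 46.1% were called with voom, 2.71% on log2(FPKM + 1), 0.78% without a filter and 4.37% with a set term. Within the sets 2.51% and 0.00458% were called, and 0.0138% within set 2 without other-tissue libraries. Relative to the score, HFD against SD (8) gave 5 within set 1 and without the 2 libraries of farthest score, 3 within set 2, and 6 to 8. Of all genes 86.8%, 91.1% and 54.3% were called in the settings named. SZ-A 400 (0) gave 2 with 5 core genes in the score or a set term, 1 on log2(FPKM + 1) and within set 1, and 0 to 4, where 67.8%, 81.2%, 76.8% and 57.8% of all genes were called in the 4 named settings. SZ-A 600 (0) gave 3 with the core score, 2 with a set term or within set 1, 1 on log2(FPKM + 1), and 0 to 2, where 76.9%, 72.4%, 63.9% and 65.3% of all genes were called.

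Directions changed within set 2 for Spp1 in HFD against SD (-0.25) and relative to the score (-0.17; -0.26 to 0.99 in single omissions) and for Apoe in the trend (-0.0036). The slope of Apoe was -0.081 with a set term, -0.14 and -0.046 within the sets, -0.046 without other-tissue libraries, and -0.043 to 0.10 in single omissions. Upper-quartile factors moved the median of all genes in HFD against SD from -0.05 to -0.17 (2959 higher and 3501 lower, against 3725 and 2689); the 8 members called there were 8 again, and the 6 called for SZ-A 400 against SD were 5.

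Libraries of the same number were not taken as pairs, since 48 of 79 such pairs, not all, had deviations correlated above 0.1 (mean 0.165). Libraries of different number in the same set did so in 212 of 298 pairs (mean 0.202), and 8 libraries correlated best with their own number. With the replicate number as a block, 3 members were called in the trend (21.5% of all genes), and 2 for SZ-A 400 and 2 for SZ-A 600 relative to the score (85.7% and 80.2% of all genes), and the slope of Apoe was -0.081.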
